A study of Mus musculus with 4 samples.

Results

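Runs of closely spaced Rad21 sites were described in mouse astrocytes (ASTs) and neural stem cells (NSCs). Rad21 is a subunit of cohesin, and a Rad21 site is here a ChIP-seq peak, a position where the authors' caller found more Rad21 fragments than the local background. The runs were defined by spacing alone: autosomal peaks of each list were sorted by start, and a run is 3 or more consecutive peaks whose start-to-start gaps are all under 10 kb. The AST list held 804 such peaks in 250 runs, out of 15707 autosomal and 16157 peaks in all. The NSC list held 1280 such peaks in 387 runs, out of 17925 autosomal and 18405 peaks in all. Both lists together gave 2084 run peaks of 34562. Since the peak starts chose the members, the number, length, span and spacing of runs are given as a description, with no test.

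NSCs were clonal dividing cultures made from mouse embryonic stem cells and kept in serum-free medium with EGF and FGF. ASTs were their post-mitotic progeny, grown with BMP, FGF and laminin, and neither culture had a further treatment. The labels name no strain, genotype or Rad21 deletion for these libraries. There was 1 library for Rad21 and 1 for input from each cell type, 4 in all, and with no replicates the spread within a cell type is unknown. The lists hold no expression values, and the cell types were therefore taken from the labels without a check of markers.

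Cohesin is a ring of Smc1, Smc3 and Rad21 that holds sister chromatids together in dividing cells. In interphase it is also found along chromosomes, mostly where the DNA-binding protein CTCF is bound, and there it takes part in chromatin loops.

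Most runs were short. In ASTs 212 of 250 runs had 3 peaks (84.8%), 33 had 4, 3 had 5, and the longest had 10 and 11. In NSCs 304 of 387 runs had 3 peaks (78.6%), 59 had 4, 16 had 5, 5 had 6, 2 had 7 and 1 had 8. Runs of more than 3 peaks thus numbered 38 in ASTs and 83 in NSCs. With the weakest NSC peaks left out, so that both lists had equal length, the order turned, to 38 in ASTs and 27 in NSCs. Both autosomal runs of 10 peaks or more belonged to ASTs.

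**Figure D1:**
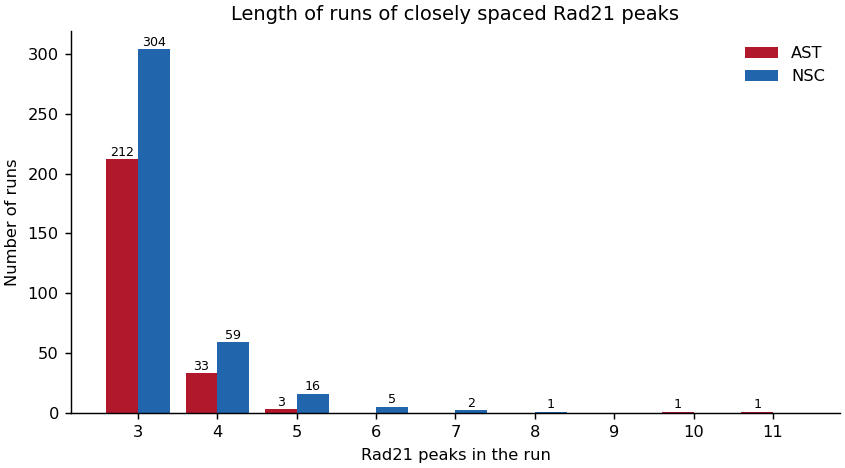
Number of runs (vertical axis) by the number of Rad21 peaks in the run (horizontal axis), with ASTs in red and NSCs in blue and the count above each bar. Runs of 3 peaks make up most runs of both lists (212 in ASTs and 304 in NSCs), and the only autosomal runs beyond 8 peaks are 2 AST runs.

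The larger number of NSC runs was not kept when the NSC list was cut to the length of the AST list by −log10 p, which takes away its weakest peaks. ASTs then had 250 runs and NSCs had 249. The parts of list length and of weak peaks in this were not tested separately. Peaks in runs made up 5.12% of the AST list (95% interval 4.78 to 5.47) and 7.14% of the NSC list (6.77 to 7.53), and 4.97% of the NSC list at equal length. Intervals on shares are exact binomial intervals here and throughout. They cover counting error only, and peaks of a run come in groups and are not independent, so they are too narrow for run peaks. Runs of 2 were far more common than longer ones: 3132 AST peaks (19.9%) and 3922 NSC peaks (21.9%) had a single neighbour in their chain.

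Runs of both cell types covered a like stretch of chromosome. The median span, from the start of the first peak to the end of the last, was 8.65 kb in ASTs (quartiles 5.78 and 12.3) and 8.65 kb in NSCs (quartiles 5.21 and 12.2). Spans under 5 kb were found in 47 AST and 95 NSC runs, and spans over 20 kb in 6 AST and 4 NSC runs. The shortest run covered 749 bp in ASTs and 712 bp in NSCs, and the longest covered 25.7 kb in ASTs and 44.9 kb in NSCs. Gaps within runs were smaller in NSCs, with a median of 3.71 kb over 554 gaps in ASTs and 3.16 kb over 893 gaps in NSCs. Gaps under 1 kb made up 15.3% in ASTs and 23.9% in NSCs. In 7 AST and 22 NSC runs every gap was under 1 kb, whereas 179 AST and 237 NSC runs had no gap so small. At the limit itself, the largest gap inside a run was 9989 bp in ASTs and 9988 bp in NSCs, and the smallest gap that kept peaks out of a run was 10069 bp in ASTs and 10001 bp in NSCs.

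Chromosome 1 held more runs than any other autosome in both cell types. It had 37 of 250 AST runs (14.8%) and 70 of 387 NSC runs (18.1%), and 8.58% of its AST peaks (7.16 to 10.2) and 13.6% of its NSC peaks (12.03 to 15.3) lay in runs. Chromosome 11 followed, with 21 AST and 31 NSC runs and 6.94% (5.56 to 8.55) and 8.97% (7.41 to 10.7) of its peaks in runs. On both chromosomes the interval lay above the share of the whole list, and in each list these were the only 2. Runs were scarce on chromosome 3, which had 7 in ASTs and 13 in NSCs, or 2.73% (1.70 to 4.14) and 4.12% (2.96 to 5.56) of its peaks. The interval also lay below the share of the list on chromosomes 10 and 14 in ASTs and on chromosomes 2, 5 and 6 in NSCs.

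Over all their peaks, chromosomes 1 and 11 differed in density and in background. Peaks were more dense on chromosome 11, at 9.71 per Mb in ASTs and 9.81 in NSCs, against 7.10 and 8.96 on chromosome 1. The caller's local background, the number of fragments it expected at a peak, was over 1.1 times the usual level of the list at 71.6% of AST and 49.97% of NSC peaks on chromosome 1. Of the peaks in runs there it was 69.2% in ASTs and 47.5% in NSCs. On chromosome 11 it was 28.3% of all AST and 23.6% of all NSC peaks. Of the peaks in runs on chromosome 11 it was 42.7% in ASTs and 26.2% in NSCs. The AST runs there included those starting at 3023784, 3056462 and 3093001, with median backgrounds of 30.4, 55.3 and 56.8 fragments. They also included the run of 11 peaks, and the share of chromosome 11 without these runs was not computed. The part of raised background in the number of runs on either chromosome was not tested. Run peaks of chromosome 1 also had a neighbour under 1 kb more often than those of the other autosomes, 26.7% against 18.6% in ASTs and 41.7% against 25.9% in NSCs. Without chromosome 1, 4.78% of AST and 6.44% of NSC peaks lay in runs.

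**Figure D2:**
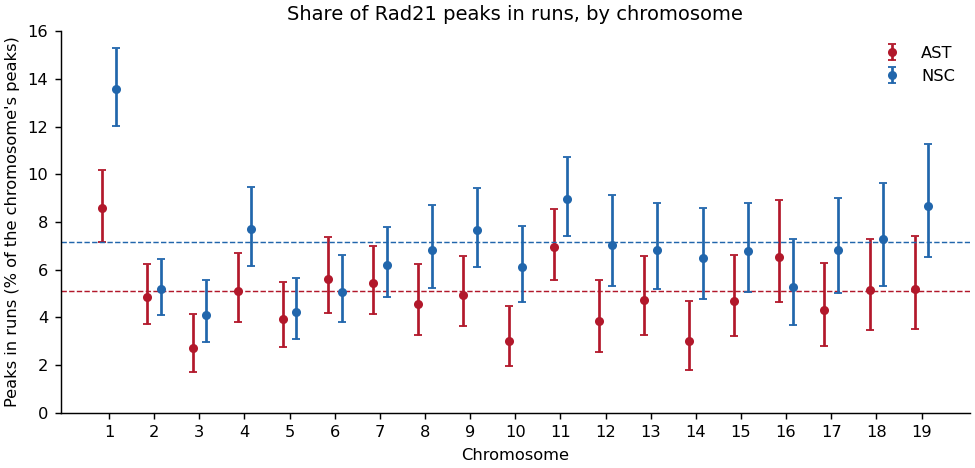
Peaks in runs as a percentage of each autosome's Rad21 peaks (vertical axis) by chromosome (horizontal axis), with ASTs in red, NSCs in blue, exact 95% binomial intervals as bars and the share of each whole list as a dashed line (5.12% in ASTs and 7.14% in NSCs). Chromosome 1 stands highest in both lists, at 8.58% and 13.6%, and chromosome 3 is low in both.

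Along the chromosomes, runs were placed much like the other peaks. The fifth of a chromosome farthest from the centromere end held 25.2% of AST runs, against 25.6% of AST peaks outside runs, and 25.3% of NSC runs, against 25.3% of NSC peaks outside. The fifth next to the centromere end held 15.6% of AST runs against 15.4% of the other AST peaks, and 14.7% of NSC runs against 14.8% of the other NSC peaks. Successive runs on a chromosome lay a median of 4.30 Mb apart in ASTs and 2.95 Mb in NSCs. Another run within 1 Mb was found for 80 AST runs (32.0%) and 144 NSC runs (37.2%), and one within 100 kb for 13 and 30. In segments of 10 Mb the most AST runs were 5, on chromosome 1 at 180 to 190 Mb and on chromosome 11 at 70 to 80 Mb. The most NSC runs were 8, on chromosome 1 at 130 to 140 Mb, where ASTs had 4.

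Peaks in runs were weaker than other peaks in NSCs and nearly as strong in ASTs. Fold enrichment is the authors' ratio of fragments piled up at a peak's summit to the local background, and it is read here only within a list. Its median was 7.83 in AST runs (quartiles 5.89 and 11.03) and 7.98 outside (6.08 and 11.03). In NSC runs it was 7.54 (5.28 and 12.2), against 8.80 outside (6.16 and 13.5). Of the run peaks, 29.0% of AST and 34.9% of NSC peaks fell in the lowest of 4 equal bins of fold enrichment, and 25.9% and 21.1% fell in the highest. Widths were alike, with a median of 209 bp in AST runs and 204 bp outside, and 225 bp in NSC runs and 234 bp outside. No p-value was computed for these or any later differences between run peaks and other peaks, since the peaks of a list come from 1 library.

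Very high background was more frequent inside runs. It was over 10 fragments at 21 of 804 AST run peaks (2.61%, 1.62 to 3.97) and at 30 of 14903 AST peaks outside (0.201%, 0.136 to 0.287). In NSCs it was 28 of 1280 run peaks (2.19%, 1.46 to 3.15) and 159 of 16645 peaks outside (0.955%, 0.813 to 1.11). The usual background, taken as the median at peaks whose fold enrichment exceeded 8, was 2.63 fragments in ASTs and 3.22 in NSCs. Only 5 AST runs, with 22 peaks, and 3 NSC runs, with 17 peaks, had a median background over 10. Without such peaks there were 244 AST and 376 NSC runs.

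The next comparison asked how many peaks inside a run were also found in the other cell type. Shared peaks are those that a peak of the other list touched over at least 1 bp, a measure that the definition of runs did not use. In AST runs 589 of 804 peaks were shared, 73.3% (70.1 to 76.3), beside 75.3% of all autosomal AST peaks and 75.4% (74.7 to 76.1) of those outside runs. The AST share inside runs was thus close to the background share. In NSC runs 767 of 1280 peaks were shared, 59.9% (57.2 to 62.6), beside 65.8% of all autosomal NSC peaks and 66.3% (65.6 to 67.0) of those outside runs. That left 215 AST-only and 513 NSC-only peaks inside runs.

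The share climbed with fold enrichment both in and outside runs, and run peaks fell behind others only among the weakest. In the lowest bin of fold enrichment the share was 48.1% (41.5 to 54.7) in AST runs and 56.96% (55.3 to 58.6) outside, and 27.3% (23.2 to 31.7) in NSC runs and 32.1% (30.7 to 33.6) outside. In the second bin it was 72.0% against 71.2% in ASTs and 55.2% against 53.99% in NSCs. In the next it was 84.0% against 83.4% and 83.3% against 80.7%, and in the highest it was 92.8% against 89.8% and 98.1% against 96.7%. From the second bin upward the share was higher in runs in both lists, but the intervals overlapped. In the lowest bin the intervals did not overlap in ASTs and overlapped in NSCs. That bin held all 22 peaks of the 5 AST runs of median background over 10, of which 3 were shared. In NSCs it held the 17 peaks of 3 such runs, of which 12 were shared. The shares of the bin without these runs were not computed, so the separation in ASTs may rest on them. Of the run peaks of fold enrichment 15 or more, 6 of 83 in ASTs and 1 of 222 in NSCs lacked a partner, beside 118 of 1452 and 63 of 3431 over all autosomal peaks.

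**Figure D3:**
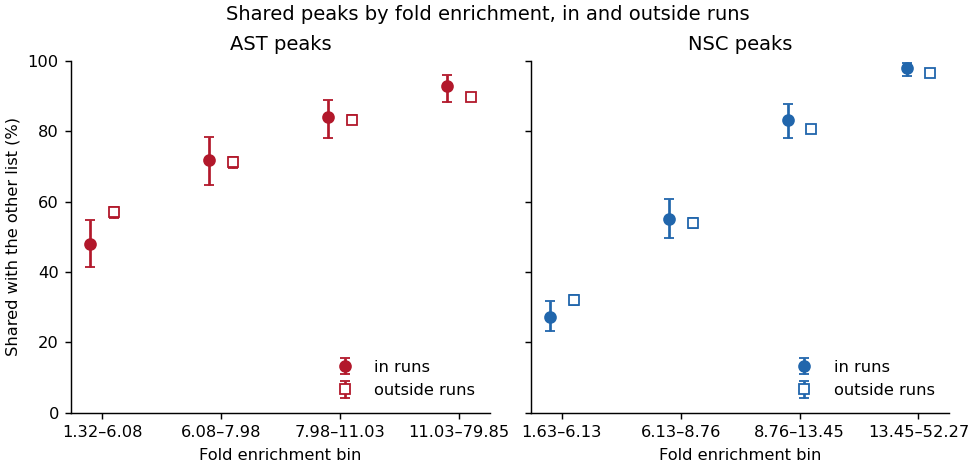
Share of Rad21 peaks that overlap a peak of the other list (percent, vertical axis) by fold enrichment within the peak's list, cut into 4 equal bins (horizontal axis, each marked with its lowest and highest value), for ASTs on the left and NSCs on the right. Filled circles are peaks in runs, open squares are peaks outside runs, and bars are exact 95% binomial intervals. The share climbs with strength both in and outside runs, and the symbols part most in the lowest bin.

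In the full lists, peaks packed most tightly were the ones least often shared. Run peaks with a neighbour under 1 kb were shared in 103 of 159 cases in ASTs (64.8%, 56.8 to 72.2) and in 160 of 369 in NSCs (43.4%, 38.2 to 48.6). Where the nearest neighbour lay 1 to 5 kb away, it was 75.6% (71.1 to 79.7) in ASTs and 67.0% (63.1 to 70.8) in NSCs, and at 5 to 10 kb it was 74.9% (68.9 to 80.3) and 65.9% (60.4 to 71.1). The tight peaks were also weak. Their median fold enrichment was 6.84 in ASTs and 5.57 in NSCs, against 7.98 and 8.21 at 1 to 5 kb, and 55.8% of the tight NSC peaks belonged to the lowest bin of the list. Among peaks of −log10 q of 10 or more the order turned, since 16 of 18 tight AST peaks (88.9%) were shared against 73.1% of all AST run peaks, and 23 of 37 tight NSC peaks (62.2%) against 56.4%. With lists of equal length, 61.5% of tight NSC peaks were shared, against 71.9% of all NSC run peaks.

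Once peaks under 1 kb apart were merged into 1, run peaks were no longer the less shared. The share was then 76.8% in AST runs against 75.5% outside, and 67.2% in NSC runs against 66.9% outside. Under the other 9 settings tried it was lower in runs in both lists. For 44 of the 215 AST-only run peaks (20.5%, 15.3 to 26.5) and 127 of the 513 NSC-only run peaks (24.8%, 21.1 to 28.7), a peak of the other list lay within 1 kb without touching. Among the cell-type-only peaks outside runs it was 3.54% in ASTs and 3.51% in NSCs. Run peaks have near neighbours by definition, and most run peaks were shared. Of the peaks outside runs, 11771 of 14903 in ASTs and 12723 of 16645 in NSCs had no neighbour under 10 kb. The definition thus favours a near peak of the other list, and the difference is not read as a result about runs.

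**Figure D4:**
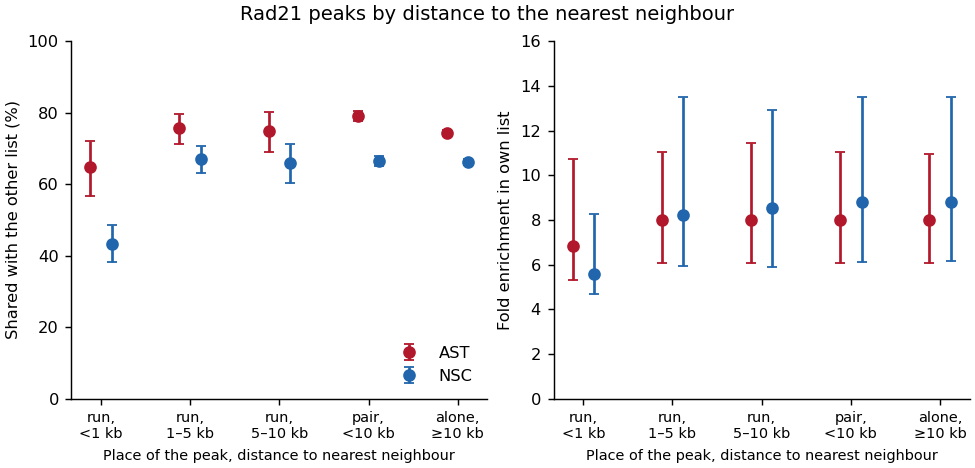
Left, share of Rad21 peaks that overlap a peak of the other list (percent, with exact 95% binomial intervals) and right, median fold enrichment in the peak's own list (bars from the lower to the upper quartile), with ASTs in red and NSCs in blue. Peaks are divided along the horizontal axis into run peaks by the distance to the nearest neighbour, peaks in runs of 2 (pair), and peaks with none under 10 kb (alone). Run peaks with a neighbour under 1 kb are lowest in both panels, at 64.8% and 43.4% shared.

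Within a run, peaks differed in strength and in whether they were shared, with little difference by place in runs of 3. The strongest peak exceeded the weakest by a median factor of 2.03 in AST runs (quartiles 1.54 and 2.70) and 2.42 in NSC runs (1.69 and 3.53). Some excess is set by the definition of strongest and weakest, and no such factor was computed for peaks outside runs. The strongest peak of a run was shared in 221 of 250 AST runs (88.4%, 83.8 to 92.1) and 327 of 387 NSC runs (84.5%, 80.5 to 88.0). The weakest was shared in 153 AST runs (61.2%, 54.9 to 67.3) and 143 NSC runs (36.95%, 32.1 to 42.0). Since the share climbed with fold enrichment outside runs too, this order is not particular to runs. In runs of 3 the middle peak was the strongest in 72 of 212 AST runs (34.0%) and 99 of 304 NSC runs (32.6%), so that no place stood out. The first, middle and last peak of such runs were shared in 73.1%, 75% and 75.5% of AST runs, and in 62.2%, 63.2% and 63.5% of NSC runs. Over runs of every length, 74.0% of end and 72.0% of inner peaks were shared in ASTs. In NSCs it was 61.8% (58.2 to 65.2) and 57.1% (52.7 to 61.5). Median fold enrichment at end and inner peaks was 7.60 and 8.23 in ASTs, and 7.63 and 7.33 in NSCs.

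Most runs mixed shared and cell-type-only peaks. Every peak was shared in 104 AST runs (41.6%, 35.4 to 47.98) and 97 NSC runs (25.1%, 20.8 to 29.7), and no peak was shared in 7 AST and 30 NSC runs. Over all autosomal peaks, 75.3% were shared in ASTs and 65.8% in NSCs. The counts of runs that these shares alone would give were not computed, so the mixing is not read as particular to runs. With lists of equal length, 9 AST and 9 NSC runs had no shared peak. In the remaining 139 AST and 260 NSC runs, the shared peaks had a median fold enrichment of 8.83 in ASTs and 10.8 in NSCs, against 6.08 and 5.53 for the cell-type-only peaks beside them. The order was the same over all autosomal peaks, at 8.66 against 6.46 in ASTs and 11.15 against 6.13 in NSCs. A single peak without partner broke the match in 100 AST and 138 NSC runs. It was the weakest of its run in 55 AST and 100 NSC runs, and the strongest in 12 AST and 4 NSC runs.

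Part of the runs of the 2 cell types fell in the same place. A run was counted as found in both lists when its span overlapped that of a run of the other list. This held for 134 AST runs (53.6%, 47.2 to 59.9) and 134 NSC runs (34.6%, 29.9 to 39.6), each matched to 1 run only. With lists of equal length it was 46.8% of AST and 46.99% of NSC runs. Over all autosomal peaks, 75.3% were shared in ASTs and 65.8% in NSCs. The number of matched runs that these shares alone would give was not computed, so the matches are not read as particular to runs. Runs of more than 3 peaks were found in both more often than runs of 3. In ASTs it was 30 of 38 against 104 of 212, and in NSCs 37 of 83 against 97 of 304. This was not corrected for the number of peaks or the span of a run. Single peaks did not follow that order. In runs of 5 or more, 44.4% of peaks were shared in ASTs and 44.7% in NSCs, against 74.5% and 62.9% in runs of 3. The AST value includes the runs of 10 and 11 peaks, of which 3 and 1 were shared. The 3 AST runs of 5 peaks had 3, 4 and 5 peaks shared. In ASTs the low value thus rests on the runs of 10 and 11 peaks.

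Of the 134 matched places, 94 had equally many peaks in both cell types, 15 had more in ASTs and 25 had more in NSCs. In 80 of them (59.7%, 50.9 to 68.1) every peak was shared on both sides, peak for peak. The number that the shares over all autosomal peaks would give here was not computed either. The order of strength matched in part of these 80. The same peak was the strongest in both cell types in 41 (51.3%, 39.8 to 62.6) and the weakest in 46 (57.5%, 45.9 to 68.5). The share that unrelated orders would give was not computed. Over 389 shared peaks that lay in runs in both lists and had 1 partner each, fold enrichments had a Spearman correlation of 0.54 across peaks, and over 10801 shared peaks outside runs it was 0.52. These are correlations across sites of 1 library per cell type. The summits of shared run peaks lay a median of 17 bp apart, and 87.4% of them within 50 bp, against 19 bp and 88.6% outside runs.

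Where a run was found in 1 cell type alone, the other list mostly had 1 or 2 peaks in its span. Of the 116 such AST runs, 73 held 2 NSC peaks in their span, 34 held 1, 7 held none and 2 held 3. Of the 253 such NSC runs, 136 held 2 AST peaks, 86 held 1, 27 held none, 3 held 3 and 1 held 4. Where 3 or 4 were present, a gap of 10 kb or more kept them from forming a run. Allowing gaps of up to 20 kb in the other list gave a run at 16 of the 116 AST and 24 of the 253 NSC places. Of the peaks in runs found in 1 cell type alone, 52.9% were shared in ASTs and 45.1% in NSCs. Over all autosomal peaks it was 75.3% and 65.8%. A run whose peaks lack partners is less likely to be matched, so this difference is set in part by how these runs were picked. In the runs found in 1 cell type alone, the peaks without partner had a median fold enrichment of 5.84 in ASTs and 5.57 in NSCs, against 9.13 and 10.7 for their shared neighbours. Over all autosomal peaks it was 6.46 against 8.66 in ASTs and 6.13 against 11.15 in NSCs.

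The runs named below were taken by a rule, in each list the 5 of most peaks and the 3 that ranked first by each of 5 further measures, and positions are in build mm9. The autosomal AST run of most peaks lay on chromosome 11 at 104376720 to 104398075. Its 11 peaks had fold enrichments, in order along the chromosome, of 3.62, 12.9, 11.7, 27.0, 10.7, 11.8, 20.2, 24.7, 12.6, 11.4 and 10.1, and widths of 203 to 358 bp. Only the eighth had a partner, the single NSC peak in the span (fold enrichment 7.33 in NSCs). The median background was 2.63, the usual level. This was the autosomal run with most AST-only peaks, and no other autosomal AST run had more than 5 peaks at usual background.

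The AST run of 10 peaks, on chromosome 11 at 3023784 to 3045112, had the opposite profile. Its fold enrichments were 1.78 to 4.36, and its median background was 30.4 fragments, 11.6 times the usual level. NSCs had a run of 6 peaks there, at 3026994 to 3033129, with fold enrichments of 1.89 to 3.10 and a median background of 27.0. The NSC run had partners for 2 of the 10 AST peaks, 1 of which overlapped 2 NSC peaks. The last AST peak was shared with an NSC peak beyond that run. Without the AST runs of 10 and 11 peaks, 74.7% of AST run peaks were shared, in place of 73.3%.

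Of the AST runs of 5 peaks, 1 was shared throughout. It lay on chromosome 18 at 75757745 to 75770550, with AST fold enrichments of 8.36, 31.2, 17.9, 6.09 and 8.75. NSCs had a run of 5 peaks there too, at 75757665 to 75770607, with fold enrichments of up to 42.2. The AST peaks of 17.9 and 6.09, whose starts lay 292 bp apart, overlapped the same NSC peak (22.0), and 1 NSC peak of that run was NSC-only. A second run of 5, on chromosome 7 at 151767455 to 151775664, had 4 shared peaks of 6.97, 8.36, 12.6 and 11.4 and an AST-only last peak of 5.70, where NSCs had a run of 4. The third lay on chromosome 1 at 90353377 to 90371282, with 3 of its 5 peaks shared and fold enrichments of 4.51 to 6.91, and NSCs had a run of 3 there.

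Some 4-peak runs, picked because every peak was shared, were the same, site by site, in both cell types. On chromosome 5, the AST run at 125748418 to 125754179 had fold enrichments of 14.5, 10.7, 7.22 and 4.16, and the NSC run at 125748457 to 125754155 had 11.6, 13.2, 7.33 and 3.46. On chromosome 11, the AST run at 93989353 to 93995294 had 9.13, 10.7, 7.98 and 11.8, and the NSC run at 93989306 to 93995337 had 8.30, 12.3, 7.04 and 10.6. In both places each peak had 1 partner, and the weakest peak was the same in both cell types.

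**Figure D5:**
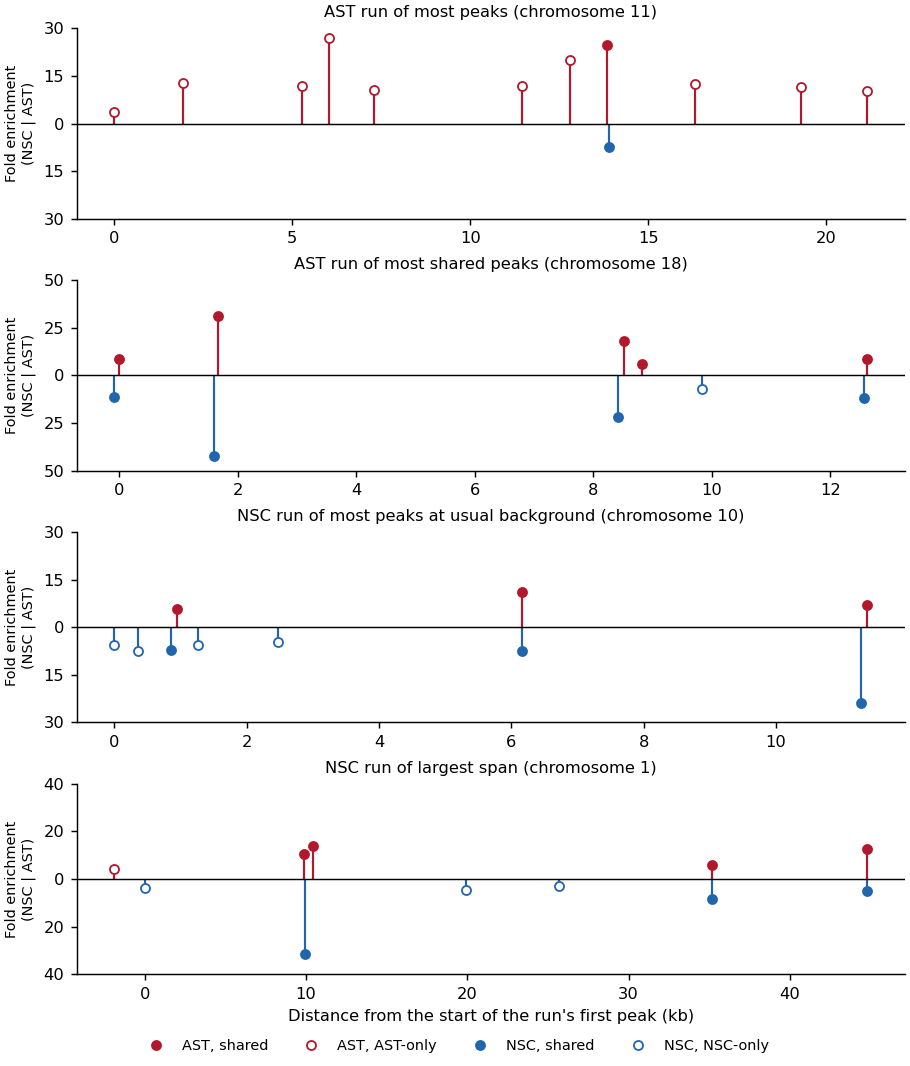
Rad21 peaks at 4 of the named runs, by distance from the start of the run's first peak (kb, horizontal axis), with fold enrichment in the peak's own list drawn upward for ASTs (red) and downward for NSCs (blue). Filled circles are shared peaks and open circles are peaks of 1 list. The run of most AST peaks (chromosome 11) faces a single NSC peak, the chromosome 18 run has a partner for each of its 5 AST peaks, and the NSC runs on chromosomes 10 and 1 face 3 and 4 AST peaks within their spans, with 1 more AST peak just outside the chromosome 1 run.

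The strongest AST runs by median fold enrichment each had 3 peaks at a median background of the usual level. The first, on chromosome 11 at 88001105 to 88017408, had fold enrichments of 17.9, 22.4 and 3.80, the last AST-only. The next, on chromosome 6 at 114293812 to 114298512, had 21.3, 17.1 and 9.51, and that on chromosome 17 at 87305519 to 87318553 had 10.9, 17.1 and 23.6. Every peak of the chromosome 6 and chromosome 17 runs was shared, with a run of 3 in NSCs at each place. The AST run of largest span lay on chromosome 6 at 108351369 to 108377041, with 4 peaks over 25.7 kb, of which the first was AST-only.

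The tightest AST runs were of 3 peaks within 1 kb. On chromosome 7 at 20335014 to 20335762 the peaks had fold enrichments of 5.32, 6.08 and 9.51, and only the last had an NSC partner (12.9). On chromosome 15 at 99426198 to 99427154 they had 3.29, 10.7 and 11.8, and the last 2 overlapped 1 NSC peak of 696 bp (21.4). The run on chromosome 7 at 89919844 to 89920613 had fold enrichments of 1.54 to 3.51, a median background of 25.3 and no NSC peak. These 3 AST runs thus faced 1 or no NSC peak each. Of all AST run peaks with a neighbour under 1 kb, 64.8% were shared.

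Among NSC runs, the one with most peaks lay on chromosome 17 at 39979952 to 39985750. All its 8 peaks were shared, but with only 2 AST peaks, of 1989 and 3787 bp, and fold enrichments were 1.72 to 3.16 in NSCs at a median background of 46.6, or 14.5 times the usual level. At usual background the run of most peaks lay on chromosome 10 at 17441606 to 17453251. Its 7 peaks had fold enrichments of 5.57, 7.63, 7.31, 5.57, 4.69, 7.55 and 23.8, and those of 7.31, 7.55 and 23.8 were shared with AST peaks of 5.70, 11.03 and 7.09, which formed a run of their own. The other run of 7, on chromosome 19 at 5780244 to 5814193, had 3 shared peaks of 6.35, 6.75 and 7.69. The AST run of 4 there, at 5793145 to 5814193, ended at the same base.

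Several named NSC runs were tight groups of weak NSC-only peaks, and the first 3 below were picked for most NSC-only peaks. A run of 5 on chromosome 13 (5859747 to 5862193) covered 2.45 kb with fold enrichments of 4.25 to 6.45, and another of 5 on chromosome 10 (36857461 to 36860279) covered 2.82 kb with 4.15 to 5.28. ASTs had no peak at either. On chromosome 1 at 59537969 to 59542105, 5 NSC-only peaks of 4.54 to 5.57 flanked 1 shared peak of 16.1, whose AST partner had 17.5. A similar run of 6 on chromosome 1 at 108067768 to 108073717 had 1 shared peak, the first and strongest (8.51, and 5.70 in ASTs). All 4 had a median background at the usual level.

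The tightest NSC runs, of 3 peaks within 1 kb, were 2 on chromosome 1 (128726678 to 128727557 and 90884403 to 90885114) and 1 on chromosome 5 (32762282 to 32763114). ASTs had no peak at either chromosome 1 run, whose strongest peaks had fold enrichments of 5.14 and 5.57. At the chromosome 5 run they had 1 (5.32), facing the strongest NSC peak (16.7). Of 9 peaks in these runs, 1 was shared. Of all NSC run peaks with a neighbour under 1 kb it was 43.4%, and of all autosomal NSC peaks 65.8%. These runs were picked for their small gaps and stand as examples only.

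The strongest NSC runs were largely shared. The run on chromosome 18 at 39090020 to 39100486 had fold enrichments of 27.6, 6.45 and 22.3, that on chromosome 1 at 168083612 to 168091313 had 14.7, 21.1 and 25.2, and that on chromosome 9 at 32389539 to 32399914 had 5.57, 21.1 and 22.3. Their 2 peaks under a fold enrichment of 10 were NSC-only, and the others were shared. The NSC runs of largest span included 1 of 6 peaks over 44.9 kb, on chromosome 1 at 184035434 to 184080377, with 3 shared peaks (31.4, 8.51 and 4.89) and 3 NSC-only peaks of 3.10 to 4.52. The 4 peaks on chromosome 1 at 193386762 to 193408623 (11.2, 7.86, 4.40 and 5.87) had no AST peak in their span of 21.9 kb. Neither of these remained a run with lists of equal length, nor did the chromosome 1 run of 6 at 59537969, the chromosome 10 run at 36857461 and the tight runs on chromosome 1.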

How the data were processed

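ASTs and NSCs each gave 1 library precipitated with anti-Rad21 antibody and 1 input library. Bowtie 1.0.0, MACS2 2.0.9 and build mm9 are named in the submitters' processing notes, while settings, read filters and read totals are not given in the sources used here. Deposited by the authors was 1 peak list per cell type with start, end, summit, a score (10 times the −log10 q, cut to a whole number), the fold enrichment (a ratio) and the −log10 p and q of each peak. The lowest deposited −log10 q was 1.03 in ASTs and 1.02 in NSCs, so a missing peak is one that was not called.

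Groups came from the sample titles. The local background of a peak was solved from its fold enrichment and −log10 p as deposited, with p a Poisson tail and 1 scale per list (1 in ASTs, 0.944 in NSCs). This gave the −log10 p back within 0.05 for 99.99% of AST and 99.7% of NSC peaks. Fold enrichment was used within a list, as were its 4 equal bins.

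Shares have exact binomial 95% intervals (Clopper-Pearson), and no test was made. Run finding, overlaps and background were tested on simulated data. Runs named by position were, in each list, the 5 of most peaks (ties by shorter span) and the 3 of smallest mean gap, of largest span, of most shared peaks with none unshared, of most cell-type-only peaks and of highest median fold enrichment. The rule, the members and the settings were chosen with earlier results of these data known. Positions count from 1. No mm9 sequence or gene annotation was used here, so no sequences are shown and genes were not assigned. Chromosomes X and Y were left out of the runs, apart from the closing section. Alternatives were other gap limits, a stricter q, equal lists, merging, other overlap rules, and lists without high background or chromosome 1. The setting without the 2 longest AST runs was chosen after seeing the data. Computations ran in Python 3.11.15 (scipy 1.17.1, pandas 2.3.3, numpy 2.4.6, matplotlib 3.10.9).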

Additional observations from a re-analysis of the deposited data

Results flagged for a closer look

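Chromosome X was left out of the runs above, and it held 7 runs with 33 of its 449 peaks in ASTs (7.35%, 5.11 to 10.2) and 5 runs with 35 of its 480 peaks in NSCs (7.29%, 5.13 to 9.995). These peaks were used in none of the comparisons. The autosomal shares were 5.12% in ASTs and 7.14% in NSCs. In NSCs the share on X was near that of the autosomes. In ASTs it was higher, with the autosomal share just above the lower limit of the X interval. That interval is too narrow for peaks that come in groups. One stretch held most of the X run peaks in both cell types. The longest run of either list was among them: at 47914129 to 47976592 (mm9), NSCs had 22 peaks over 62.5 kb, with fold enrichments of 4.69 to 13.5 and the usual background (3.22), and 18 of the peaks were shared. ASTs had 2 runs within the same stretch, 7 peaks at 47914176 to 47933596 (fold enrichments 4.56 to 11.4) and 11 peaks at 47943961 to 47973403 (2.90 to 10.7), every one of them shared. The NSC run thus exceeded the longest autosomal run of its list, which had 8 peaks.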

How the results depend on the processing

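No paired analysis was possible because each cell type had 1 library. The numbers of runs and their peaks depended most on the gap limit and on the threshold. With gaps under 5 kb there were 117 AST and 194 NSC runs with 2.37% and 3.55% of peaks, 56.99% of the NSC run peaks were shared, and 47.0% of AST and 28.4% of NSC runs were found in both lists. With gaps under 20 kb there were 589 AST and 841 NSC runs with 12.5% and 15.8% of peaks, and in NSCs 63.2% of run peaks were shared and 39.8% of runs found in both. Keeping only peaks whose −log10 q reached 10 gave 45 AST and 96 NSC runs with 1.74% and 2.56% of peaks, and in NSCs 56.4% of run peaks were shared and 22.9% of runs found in both. With lists of equal length, 70.02% of AST run peaks were shared and 46.8% of AST runs found in both. In NSCs there were then 249 runs with 4.97% of peaks, 71.9% of run peaks were shared and 46.99% of runs found in both. Merging peaks under 1 kb apart left 3.94% of AST and 4.90% of NSC peaks in runs, with 76.8% and 67.2% shared. A reciprocal overlap of 0.5 gave 65.7% shared in AST and 53.6% in NSC runs, and without chromosome 1 the NSC share in runs was 6.44%. These were 32 of 70 values, and the other 38 stayed within the counting interval or within 1.5 times. Of the 31 named runs, 10 still had 3 peaks or more at the stricter q, 25 with lists of equal length (the 6 lost were NSC runs), 21 with gaps under 5 kb, 20 after merging and 28 without background over 10. Peaks of low fold enrichment near the caller's threshold limit what can be said of a missing partner.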
